A study of Mus musculus with 140 samples.

Results

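The 47 mitosis genes encode proteins that drive a cell into mitosis, build the spindle, attach and separate the chromosomes and divide the cell. They were chosen by name, and each was followed through the probe set with the highest mean signal among those annotated to that gene alone. Of the 47 genes, 46 had such a probe set, and all 46 passed a filter on low signals that 14749 of 18193 genes passed in the whole series. Ccnb1, which encodes cyclin B1, is not analysed here. The genes were measured in CCE cells, a mouse embryonic stem cell line of the 129/Sv strain, in 9 daily courses with 70 RNA samples in all. In 7 courses the cells carried a short hairpin RNA (shRNA) against Nanog, Oct4, Sox2, Esrrb, Tbx3, Tcl1 or the transcript named Mm343880, and in the reference course they carried the empty H1P vector. All cells of these 8 courses were kept in leukaemia inhibitory factor (LIF) at 1000 units per ml and were sorted for GFP each day, with day 0 at 48 hours after transduction. In the remaining course cells were kept without LIF in 5 µM retinoic acid. The labels name no transduction or sorting for it, so retinoic acid, loss of LIF and the lack of vector and sorting cannot be told apart. Its day 0 thus has no time after transduction, and equal day numbers need not mark equal times in this course and the vector course. The courses ran over days 0 to 7, except that the Mm343880 and retinoic acid courses have samples of days 0 to 6 here. Each course gave 1 sample a day with no replicate transduction, and each hairpin is represented by 1 course. All differences from the empty vector share the same vector samples, so they are given side by side and are not independent of each other.

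Entry into mitosis is set by Cdk1 bound to cyclins A and B, which Cdc25 phosphatases switch on and which the anaphase-promoting complex switches off by having the cyclins degraded. Many genes of this program are transcribed in the G2 phase through a promoter element called the cell cycle genes homology region (CHR), often near CCAAT boxes that bind NF-Y, with repression by the DREAM complex outside of that phase. Mouse embryonic stem cells have short gap phases, and cell cycle control changes as they differentiate.

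Promoter windows were read from RefSeq (GRCm38.p6), 250 bases before to 50 bases after each gene start, and 39 of the 47 genes matched, with 42 windows. The letters TTTGAA (the CHR), searched on both strands, occurred in 31 of the 42 windows (73.8%), against 17.9% of all 32851 windows. The letters CCAAT on either strand occurred in 33 windows (78.6%), against 37.4% of all windows, and both motifs occurred in 28 windows (66.7%), against 6.95%. The CHR variant TTTAAA, which reads the same on both strands, occurred in 23.8% of member windows and 13.2% of all windows. Matches to different motifs were counted even where they shared bases. Of the 39 CHR matches 29 began no more than 60 bases before the start. Bub3, Ect2 and Prc1 had overlapping windows, and a site in the shared bases was counted once for each window. The matches describe letters in a window and not sites that were tested.

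The windows of 4 genes, chosen after their values were seen, are shown as examples of members that differed in direction under retinoic acid, with Cdc20, Ccnb2 and Espl1 lower and Plk4 higher. They lie on chromosome 4 (chr4:118437294-118437593, minus strand), chromosome 9 (chr9:70421505-70421804, minus strand), chromosome 15 (chr15:102296043-102296342, plus strand) and chromosome 3 (chr3:40799701-40800000, plus strand), in that order. Each runs 5′ to 3′ on the gene's strand, with matches to the CHR, its variant and the CCAAT box on either strand in capitals.
Cdc20: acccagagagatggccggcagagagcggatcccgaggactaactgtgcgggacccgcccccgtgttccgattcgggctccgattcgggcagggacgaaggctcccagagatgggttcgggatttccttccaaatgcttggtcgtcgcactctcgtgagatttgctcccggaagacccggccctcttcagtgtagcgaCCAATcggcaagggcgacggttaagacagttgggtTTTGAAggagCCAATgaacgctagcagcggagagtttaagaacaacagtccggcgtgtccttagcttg
Ccnb2: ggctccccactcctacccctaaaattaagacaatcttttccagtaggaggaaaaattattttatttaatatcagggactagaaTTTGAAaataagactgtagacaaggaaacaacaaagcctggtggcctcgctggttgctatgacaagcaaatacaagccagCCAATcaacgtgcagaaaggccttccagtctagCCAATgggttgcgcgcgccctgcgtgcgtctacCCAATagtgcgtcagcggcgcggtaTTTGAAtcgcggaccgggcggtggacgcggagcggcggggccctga
Espl1: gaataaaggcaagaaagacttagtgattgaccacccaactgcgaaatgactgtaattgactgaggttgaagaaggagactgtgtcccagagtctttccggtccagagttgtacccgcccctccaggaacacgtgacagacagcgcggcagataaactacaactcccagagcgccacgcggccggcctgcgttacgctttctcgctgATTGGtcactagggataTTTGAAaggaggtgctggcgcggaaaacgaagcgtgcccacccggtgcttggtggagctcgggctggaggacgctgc
Plk4: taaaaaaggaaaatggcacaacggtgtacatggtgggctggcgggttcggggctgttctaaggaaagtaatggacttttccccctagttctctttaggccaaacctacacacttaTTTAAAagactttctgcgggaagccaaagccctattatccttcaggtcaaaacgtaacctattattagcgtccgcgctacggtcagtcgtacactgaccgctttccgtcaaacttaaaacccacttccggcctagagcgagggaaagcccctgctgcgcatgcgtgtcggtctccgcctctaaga
The Cdc20 window held 1 CHR and 2 CCAAT matches, the Ccnb2 window 2 and 3, and the Espl1 window 1 and 1, while the Plk4 window held neither and 1 match to TTTAAA. Spc25, Ndc80 and Smc2, which were also higher under retinoic acid, each held a CHR match, so these 4 windows do not stand for all members. The CHR matches closest to the start began at -18 bases in Cdc20, at 4 bases in Ccnb2 and at -27 bases in Espl1, as in the map of matches by distance from the start.

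**Figure D1:**
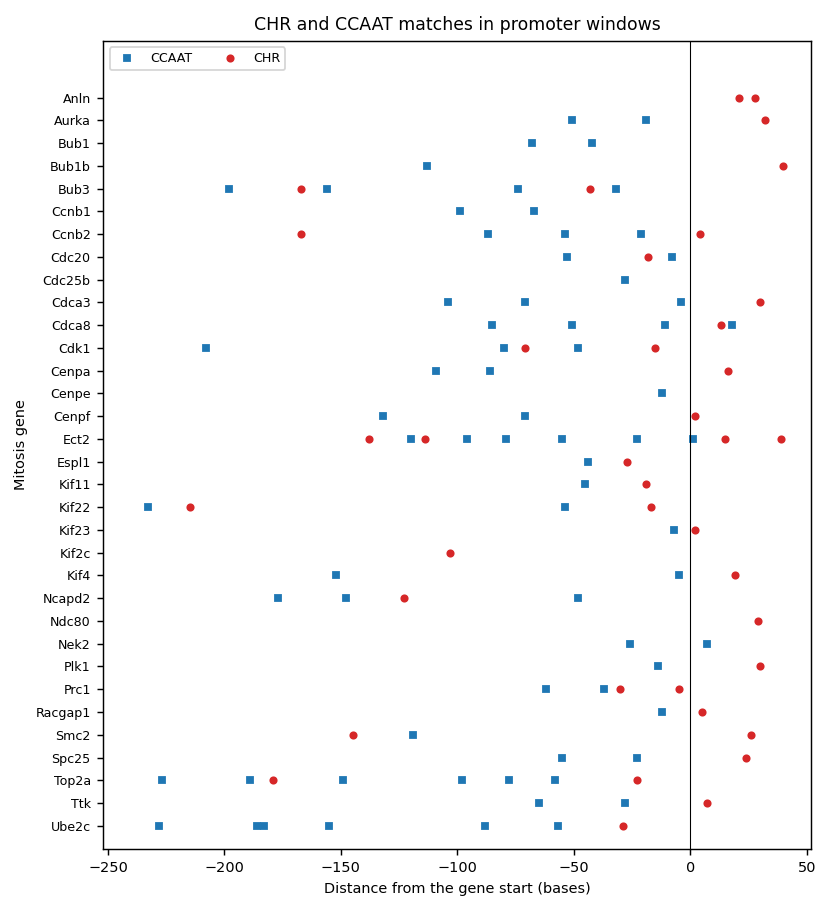
Matches to TTTGAA (CHR, circles) and CCAAT (squares) on either strand in the promoter windows of the mitosis genes, by distance in bases of the first base of the match from the gene start (vertical line at 0). Genes whose window held neither motif are not drawn. Sites shared by overlapping windows of Bub3, Ect2 and Prc1 are drawn and counted once for each window. CHR matches lie mostly around the start, with 29 of 39 at or after 60 bases before it, and CCAAT matches lie further upstream, with a median distance of -65 bases.

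The late level of each gene was taken as the mean of its fitted curve over days 4, 5 and 6, on a log2(signal + pseudocount) scale, and a difference was called where limma's p-value, adjusted over all 14749 genes, was under 0.05. Folds are given on that scale and so come out too small for genes with low signal. On late days the mitosis genes were lower mainly in the Sox2, Nanog and retinoic acid courses. In the Sox2 course 20 of 46 were lower and 0 higher, with 0 higher also at an unadjusted p under 0.05, while 12% of all genes were lower and 11.9% higher. In the Nanog course 18 were lower and 1 higher, against 9.86% and 11.9% of all genes. In the Oct4 course 8 were lower and 1 higher, against 10.6% and 6.6%, but without day 6 only 1 call was left. Under retinoic acid 28 were lower and 6 higher, against 23.3% and 27.4%. The median log2 difference of the 46 genes was -0.35 for Sox2, -0.24 for Nanog, -0.26 for Oct4 and -0.62 for retinoic acid, against -0.03, 0.04, -0.10 and 0.04 over all genes. RNA came from many cells at once, so fewer cells in mitosis and less RNA per cell cannot be told apart.

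The other 4 knockdowns left most of the genes near the vector. In the Esrrb course 0 of 46 passed, against 5.22% of all genes lower and 7.34% higher, and 4 were lower and 1 higher at an unadjusted p under 0.05. In the Tbx3 course 2 were lower and 0 higher (background 5.63% and 6.17%), with 4 higher at an unadjusted p under 0.05, and in the Tcl1 course 1 was lower and 3 higher (4% and 4.99%). In the Mm343880 course 7 were lower and 3 higher (7.07% and 7.46%). These small counts moved with the days used: without day 6 the Mm343880 course had 3 lower and 5 higher, the Tbx3 course 0 and 1, and without day 4 or without day 5 the Tcl1 course had 1 lower and 0 higher. The lower share in the Mm343880 course lay above the background, though only 1 of its 10 calls held under all 17 alternatives. The other shares lay near or below the background, as in the plot of shares by course, and are no result about these genes.

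**Figure D2:**
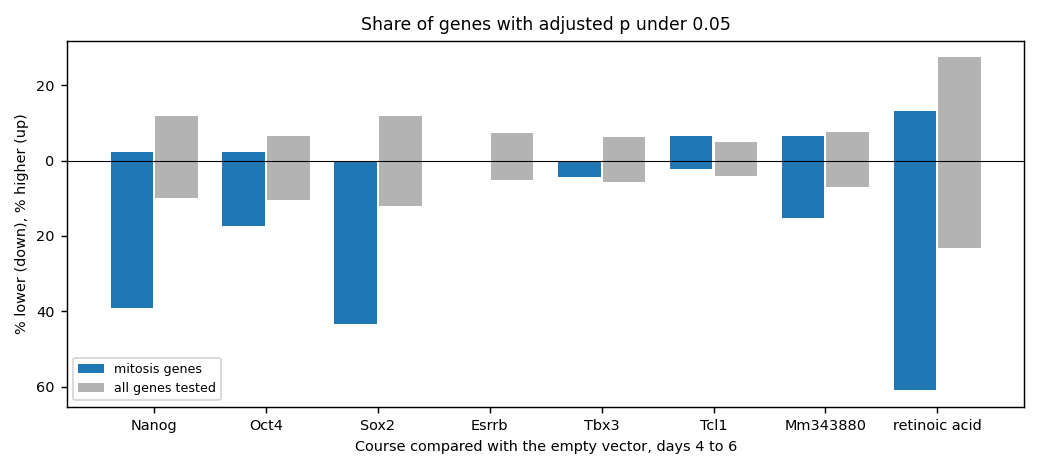
Share of genes with an adjusted p under 0.05 in the late difference from the empty vector, for the 46 mitosis genes and for all 14749 genes tested, as percent lower (bars down) and percent higher (bars up) in each course. The mitosis genes exceed all genes on the lower side in the Sox2, Nanog, Oct4, Mm343880 and retinoic acid courses, by the widest margin under retinoic acid and in the Sox2 course.

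Across the 7 knockdowns, 24 of the 46 genes were lower in none of them, 4 in 1, 9 in 2, 3 in 3, 5 in 4 and 1 in 5. The gene lower in 5 was Ncapd2, a condensin subunit that compacts chromosomes, and those lower in 4 were Bub1b, Cdc25b, Cdca3, Espl1 and Kif20a. Of the 20 genes lower in the Sox2 course, 16 were also lower in the Nanog course and 6 in the Nanog and Oct4 courses. All these differences share the vector samples, and no matching tallies were made over all genes. The tallies are therefore a description and no result about the mitosis genes.

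**Figure D3:**
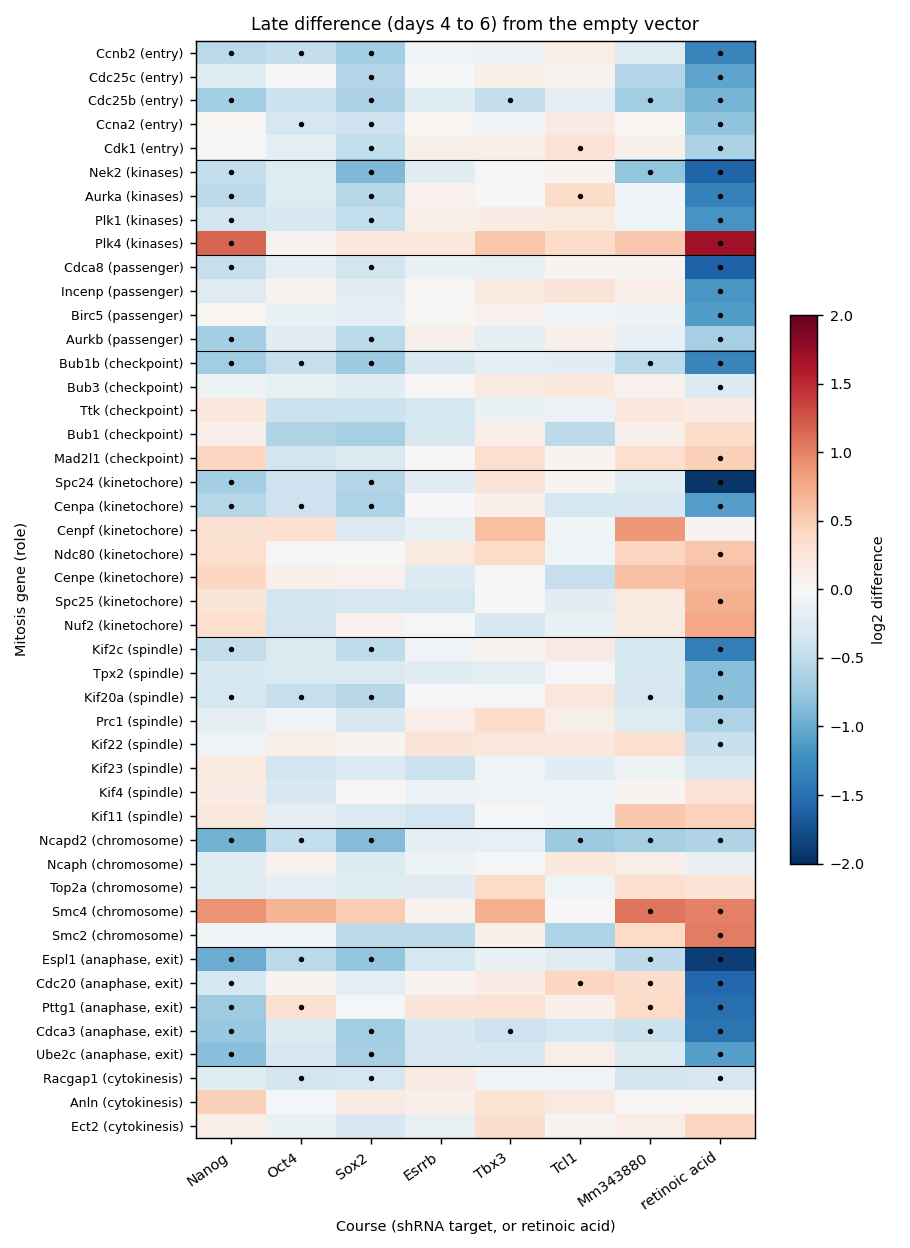
Late log2 difference from the empty vector (mean of the fitted curves over days 4 to 6) for 46 mitosis genes, grouped by role and ordered within a role by the retinoic acid value, in 8 courses. Dots mark an adjusted p under 0.05. Under retinoic acid Spc24 (-1.94) and Espl1 (-1.88) are lowest and Plk4 (1.69) is highest.

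The genes that start mitosis were lower together in the Sox2 and retinoic acid courses. All 5 measured members (Cdk1, Ccna2, Ccnb2, Cdc25b and Cdc25c) passed there, against 12% and 23.3% of all genes lower. In each of the Nanog and Oct4 courses 2 of 5 passed, against 9.86% and 10.6%. Cdk1, the kinase that carries the mitotic signal, had signals of 8891, 8048 and 9271 on days 4, 5 and 6 in the vector and 6750, 5320 and 6130 in the Sox2 course. The Sox2 values all lay below the vector values. The late difference was -0.50 ± 0.09 (SE; 1.41-fold lower, adjusted p = 3.39e-05, limma). Under retinoic acid Cdk1 read 6183, 5523 and 5004 on the same days, 1.55-fold lower than the vector (adjusted p = 1e-07), and its lowest signal of the 70 samples was on day 6 of that course. In the Tcl1 course Cdk1 read 11144, 10084 and 10298, above all 3 vector values, and was 1.22-fold higher (adjusted p = 0.0357), a call lost under 11 of 17 alternatives. Ccnb2, cyclin B2, had 5346, 4267 and 5200 in the vector against 3717, 2536 and 2899 in the Sox2 course (1.61-fold lower, adjusted p = 0.000107) and 1905, 2120 and 1810 under retinoic acid (2.51-fold lower). Cdc25b, a phosphatase that activates Cdk1, passed in the Nanog, Sox2, Tbx3, Mm343880 and retinoic acid courses, at 1.4-fold to 1.9-fold lower, though its Tbx3 call was lost without any single day. Without day 6 the Ccnb2 calls in the Nanog and Oct4 courses were lost, and the Cdc25c call in the Sox2 course was lost under 8 of 17 alternatives.

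Of the other mitotic kinases, Plk1, Aurka and Nek2 were lower in the Sox2, Nanog and retinoic acid courses, and Plk4 was higher in the Nanog and retinoic acid courses. Plk1, which acts at centrosomes, kinetochores and in cytokinesis, read 5727, 4862 and 4740 in the vector, 4426, 3525 and 2782 in the Sox2 course and 4291, 4065 and 3421 in the Nanog course. Neither knockdown overlapped the vector on these days. The differences were 1.41-fold (adjusted p = 0.00184) and 1.29-fold (adjusted p = 0.024) lower, and under retinoic acid 2.28-fold lower (adjusted p = 3.99e-11). Nek2, a centrosome kinase, was 1.85-fold lower in the Sox2 course, 1.73-fold lower in the Mm343880 course and 3.03-fold lower under retinoic acid. With all Nek2 probe sets averaged none of these calls held, so its values rest on the probe set used. Aurka, which matures centrosomes, was 1.44-fold lower in the Nanog course and 1.49-fold lower in the Sox2 course, and in the Tcl1 course it was 1.29-fold higher (adjusted p = 0.0323), a call lost under 9 of 17 alternatives. The Plk1 call in the Nanog course was lost without day 2, day 4 or day 6.

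Plk4, which starts centriole duplication, went the other way from the other kinases. Its vector signals on days 4, 5 and 6 were 499, 583 and 559, against 846, 1682 and 1563 in the Nanog course and 2248, 2081 and 1782 under retinoic acid. All of these lay above the vector values. Plk4 was 2.24-fold higher in the Nanog course (log2 difference 1.16 ± 0.27 SE, adjusted p = 0.00107) and 3.23-fold higher under retinoic acid (1.69 ± 0.27, adjusted p = 8.45e-07), and both calls held under all 17 alternatives. Its 2 other probe sets were also higher under retinoic acid, by 1.47 and 1.03 on the log2 scale, and both passed.

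The chromosomal passenger complex, which corrects kinetochore attachments and runs cytokinesis, was lower under retinoic acid in all 4 members (23.3% of all genes). Cdca8 (borealin) was 3.08-fold, Incenp 2.24-fold, Birc5 (survivin) 2.18-fold and Aurkb, the complex's kinase, 1.58-fold lower. Cdca8 read 10841, 9302 and 9444 in the vector and 3656, 3718 and 2421 under retinoic acid, without overlap. In the Nanog and Sox2 courses Cdca8 and Aurkb were lower, and Birc5 and Incenp did not pass. Aurkb had 1941, 1987 and 1343 in the vector, 1153, 810 and 1215 in the Nanog course and 1625, 946 and 1069 in the Sox2 course. The Nanog values lay below all vector values, and the Sox2 values overlapped them. The differences were 1.6-fold (adjusted p = 0.00597) and 1.45-fold (adjusted p = 0.0285) lower. Without day 5 both Aurkb calls and the Cdca8 call in the Nanog course were lost, without day 1 or day 6 the Aurkb call in the Sox2 course, and without day 4 the Cdca8 call in that course.

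Among the spindle checkpoint genes, which hold anaphase until all chromosomes are attached, Bub1b was lower in 4 knockdowns and under retinoic acid. Bub1b, which encodes BubR1, read 4624, 4479 and 4769 in the vector and 2953, 2627 and 2690 in the Sox2 course. The Nanog course had 3221, 2882 and 2361, and retinoic acid 1954, 1898 and 1691. No value of these courses reached the vector's. Bub1b was 1.65-fold lower in the Sox2 course (adjusted p = 1.51e-05), 1.62-fold in the Nanog course (adjusted p = 3.8e-05), 1.45-fold in the Mm343880 course, 1.38-fold in the Oct4 course (lost without day 6) and 2.49-fold under retinoic acid (adjusted p = 4.02e-12). A further Bub1b probe set gave -0.72 for Sox2 and -1.36 for retinoic acid on the log2 scale, and both passed. Mad2l1 (Mad2), which inhibits Cdc20, was 1.4-fold higher under retinoic acid (adjusted p = 0.0435), a call lost under 5 of 17 alternatives, among them those without day 2, day 4 or day 6. Bub1 and Ttk (Mps1) passed in no late difference.

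The kinetochore genes split under retinoic acid. Spc24, a subunit of the Ndc80 complex that grips microtubules, had 3180, 2250 and 3262 in the vector and 968, 742 and 576 under retinoic acid, and was 3.84-fold lower (adjusted p = 1.97e-14). Cenpa, the histone that marks centromeres, was 2.15-fold lower. Their values did not overlap the vector's. Spc25, the partner of Spc24 in the complex, had 1003, 873 and 1092 in the vector and 1970, 1769 and 1294 under retinoic acid, and was 1.64-fold higher (adjusted p = 0.00368), and Ndc80 was 1.46-fold higher (adjusted p = 0.0138). Spc25, Ndc80, Mad2l1 and Smc4 lost their calls under retinoic acid with arrays centred on their medians, and Spc25 and Ndc80 also without day 4, Spc25 further without day 5. Nuf2, the fourth subunit, had a log2 difference of 0.77 that did not pass, nor did Cenpe or Cenpf. In the Nanog and Sox2 courses Spc24 was 1.61-fold and 1.5-fold lower and Cenpa 1.49-fold and 1.53-fold lower, and the other 5 members did not pass. The Cenpa call in the Nanog course was lost without day 6. A dimmer Cenpa probe set with a mean signal of 68.0 was higher in the Nanog course, by 1.08 on the log2 scale (adjusted p = 0.041).

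Of 8 motor and spindle genes, 5 were lower under retinoic acid (23.3% of all genes) and 2 in each of the Nanog (9.86%) and Sox2 (12%) courses. Such small counts in the Nanog and Sox2 courses are no result about this role. Kif20a, a kinesin of the central spindle, read 2023, 2019 and 2220 in the vector and 1697, 1144 and 1416 in the Sox2 course. The Sox2 values lay below the vector's, and the gene was 1.47-fold lower (adjusted p = 0.000311). Kif20a was also 1.38-fold lower in the Oct4 course, 1.27-fold in the Nanog course, 1.26-fold in the Mm343880 course and 1.79-fold under retinoic acid. Of these, the Oct4 and Nanog calls were lost without day 5 or day 6, and the Mm343880 call under 14 of 17 alternatives. Kif2c, which removes tubulin from microtubule ends, was 1.39-fold lower in the Nanog course, 1.41-fold in the Sox2 course and 2.61-fold under retinoic acid, and without day 6 the calls in both knockdowns were lost. Among the late differences from the vector, Prc1, Kif22 and Tpx2 were lower under retinoic acid only. For Tpx2, which nucleates spindle microtubules, the probe set used fell to -0.86 on the log2 scale, while 2 others were higher by 0.53 and 0.54 and passed, so its direction depends on the probe set. Kif11, the kinesin that separates the poles, passed in no late difference from the vector, with 539, 582 and 552 in the vector and 882, 965 and 679 under retinoic acid.

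The chromosome structure genes did not move together. Ncapd2 read 4414, 3718 and 5620 in the vector, 3338, 1755 and 2508 in the Sox2 course and 3734, 1614 and 2042 in the Nanog course. Only the Nanog values overlapped the vector's, on day 4. Ncapd2 was 1.93-fold lower in the Nanog course (adjusted p = 4.8e-05), 1.83-fold in the Sox2 course, 1.66-fold in the Tcl1 course, 1.58-fold in the Mm343880 course, 1.41-fold in the Oct4 course and 1.52-fold under retinoic acid. Without day 6 its Oct4, Tcl1, Mm343880 and retinoic acid calls were lost. Its other, dimmer probe set did not pass in the Sox2, Nanog or retinoic acid comparison. The condensin ATPases Smc2 and Smc4 were higher under retinoic acid, 2.03-fold and 2-fold. Smc4 read 976, 2230 and 3125 on days 4, 5 and 6 under retinoic acid and 923, 608 and 1387 in the vector, with overlap, and its call was lost without day 5 or without day 6. Smc4 was also 2.11-fold higher in the Mm343880 course (adjusted p = 0.035), a call lost without day 2, day 4 or day 5, and the Smc2 call was lost without day 5 or day 6. Top2a, the topoisomerase that untangles sister chromosomes, passed in no late difference. Its late signals were 4637, 3825 and 4821 in the vector and 5610, 4997 and 5746 under retinoic acid.

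All 5 genes of anaphase and mitotic exit were lower in the Nanog course and under retinoic acid, against 9.86% and 23.3% of all genes. In the Sox2 course 3 were lower, against 12%. Espl1 (separase), which cuts cohesin, read 3538, 2957 and 4674 in the vector, 2540, 1382 and 1642 in the Nanog course and 1099, 1080 and 780 under retinoic acid. Neither course overlapped the vector. It was 2-fold lower in the Nanog course (adjusted p = 1.11e-06), 1.73-fold in the Sox2 course (adjusted p = 4.41e-05) and 3.67-fold under retinoic acid (adjusted p = 1.18e-14). Ube2c, the ubiquitin-conjugating enzyme of the anaphase-promoting complex, was 1.79-fold lower in the Nanog course and 1.59-fold in the Sox2 course.

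Pttg1 (securin), the inhibitor of separase, differed in direction between courses. It read 19360, 15178 and 21036 in the vector, 8771, 11748 and 12480 in the Nanog course and 17032, 18285 and 15889 in the Sox2 course. The Nanog values lay below all vector values and the Sox2 values overlapped them. Pttg1 was 1.64-fold lower in the Nanog course (adjusted p = 4.06e-06) and 2.84-fold lower under retinoic acid, with a log2 difference of -0.04 in the Sox2 course. It was 1.24-fold higher in the Oct4 course (adjusted p = 0.0487), a call lost under 12 of 17 alternatives, and 1.3-fold higher in the Mm343880 course, a call lost without day 4, and there a dimmer probe set was at -0.95 on the log2 scale and passed. Cdca3, which helps degrade the Wee1 kinase, was 1.68-fold lower in the Nanog course, 1.62-fold in the Sox2 course and 2.76-fold under retinoic acid, while a dimmer Cdca3 probe set was higher in the Nanog course (0.58, adjusted p = 0.0466).

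Cdc20, the activator of the anaphase-promoting complex, had 11542, 11699 and 12919 in the vector and 4883, 4165 and 3388 under retinoic acid, and was 2.97-fold lower (adjusted p = 8.18e-16). In the Nanog course it read 11328, 10371 and 7276 and was 1.27-fold lower (adjusted p = 0.0197), a call lost without day 6. In the Tcl1 course it read 15084, 17555 and 17195 and was 1.34-fold higher (adjusted p = 0.00932), and in the Mm343880 course 15134, 15276 and 15400, 1.27-fold higher (adjusted p = 0.0304). Both courses lay above all vector values, and both calls were lost without day 4 or day 5. In the Sox2 course Cdc20 gave -0.19 and did not pass, while another bright Cdc20 probe set gave -0.39 (adjusted p = 0.0132).

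Of the 3 cytokinesis genes, only Racgap1, a regulator of the contractile ring, passed in any late difference from the vector. It was 1.29-fold lower in the Oct4 course, 1.28-fold in the Sox2 course and 1.26-fold under retinoic acid. Limma's adjusted p was 0.048, 0.0465 and 0.0345. The first 2 calls were lost under 12 of 17 alternatives each and the last under 8. Ect2 and Anln (anillin) did not pass against the vector. Ect2 was lower in the Sox2 course than in the Tbx3 course, a call lost under 5 of 17 alternatives.

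**Figure D4:**
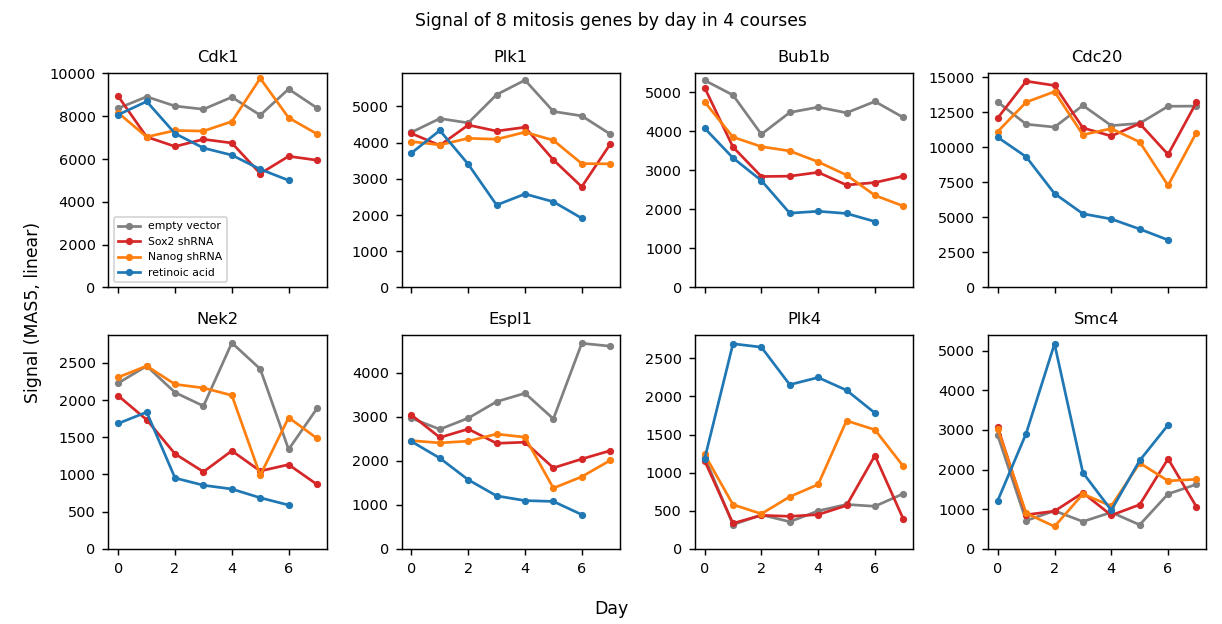
MAS5 signal (linear scale from 0) of 8 mitosis genes by day in the empty vector, Sox2 shRNA, Nanog shRNA and retinoic acid courses, 1 sample a point. Cdc20 falls from 10708 on day 0 to 3388 on day 6 under retinoic acid, while Plk4 stands at 2690 on day 1 and 1782 on day 6 of that course.

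The course of the genes over time was compared within each course, as the late level minus the early level on days 0 and 1. Under retinoic acid 22 of 46 fell and 0 rose, with 0 rising at an unadjusted p under 0.05, against 14.7% and 18.5% of all genes. Incenp (-1.39), Spc24 (-1.28), Cdc20 (-1.26) and Nek2 (-1.24) fell furthest on the log2 scale. Cdc20 read 10708, 9317, 6696, 5254, 4883, 4165 and 3388 on days 0 to 6, lower on each day than on the day before. Plk4, Smc4 and Spc25, which were higher than the vector late on, gave changes of 0.23, -0.02 and -0.21 that did not pass. Spc25 read 1411, 2770, 2307, 1675, 1970, 1769 and 1294, so it was highest on day 1.

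The high early values of some genes under retinoic acid set them apart from those that fell from the outset. Of the 46 genes 19 had their highest signal of that course on day 1 (41.3%, against 12.4% of all genes) and 10 on day 2 (21.7%, against 16.4%). Mad2l1, Plk4, Spc25, Ect2 and Nuf2 had their highest signal of all 70 samples on day 1 of the retinoic acid course. Smc2, Smc4, Kif11 and Cenpe had it on day 2. Smc4 rose from 1221 on day 0 to 5170 on day 2 and read 976 on day 4. The median difference of the 46 genes from the vector on the same day was -0.22 on day 0, 0.06 on day 2, -0.68 on day 4 and -0.67 on day 6 on the log2 scale. Over all genes it was -0.15, 0.13, -0.05 and 0.09 on these days. On day 2 the mitosis genes thus did not stand above the median of all genes.

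In the Sox2 course 11 genes fell between early and late days and 0 rose, with 0 rising at an unadjusted p under 0.05 (3.15% and 4.46% of all genes), in the Nanog course 6 fell and 0 rose (4.42% and 6.25%), in the Oct4 course 6 fell and 1 rose (3.99% and 4.3%), and in the Mm343880 course 9 fell and 0 rose (3.54% and 5.57%). No gene rose at an unadjusted p under 0.05 in the Nanog and Mm343880 courses either. Bub1 (-1.28), Ttk (-0.94), Nek2 (-0.71) and Mad2l1 (-0.69) fell furthest in the Sox2 course. Bub1b fell by 1.54-fold there, 1.52-fold in the Nanog course, 1.44-fold in the Mm343880 course and 1.37-fold in the Esrrb course, where it was the single call (1.6% of all genes fell and 4.95% rose). Spc24 (-0.86) fell furthest in the Nanog course, Mad2l1 (-0.94) in the Oct4 course, where Pttg1 rose by 0.56, and Nek2 (-0.95) in the Mm343880 course. In the vector course 0 of 46 passed (0.258% of all genes fell and 0.515% rose), with 4 lower and 2 higher at an unadjusted p under 0.05, in the Tbx3 course 0 (1.01% and 3.61%), with 1 and 5, and in the Tcl1 course 0 (0.549% and 1.7%), with 0 and 0.

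Most falls in the knockdowns were lost when day 0 was left out. Without day 0 the Sox2 and Oct4 courses had 0 calls, the Esrrb course 0, the Mm343880 course 1 and the Nanog course 2, of which 1 rose, while retinoic acid kept 22. The mean over the 46 genes on the log2 scale was highest on day 0 in the vector, Nanog, Oct4, Sox2, Tcl1 and Mm343880 courses, as the plot of means by day shows. In the Sox2 course 34 of 46 genes had their highest signal on day 0 (73.9%, against 24.4% of all genes), in the Oct4 course 26 (56.5% against 27.1%), in the Nanog course 22 (47.8% against 16%) and in the vector itself 20 (43.5% against 25.2%). Day 0 cells were sorted at re-plating and later cells after culture on new dishes, so day and culture cannot be told apart.

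**Figure D5:**
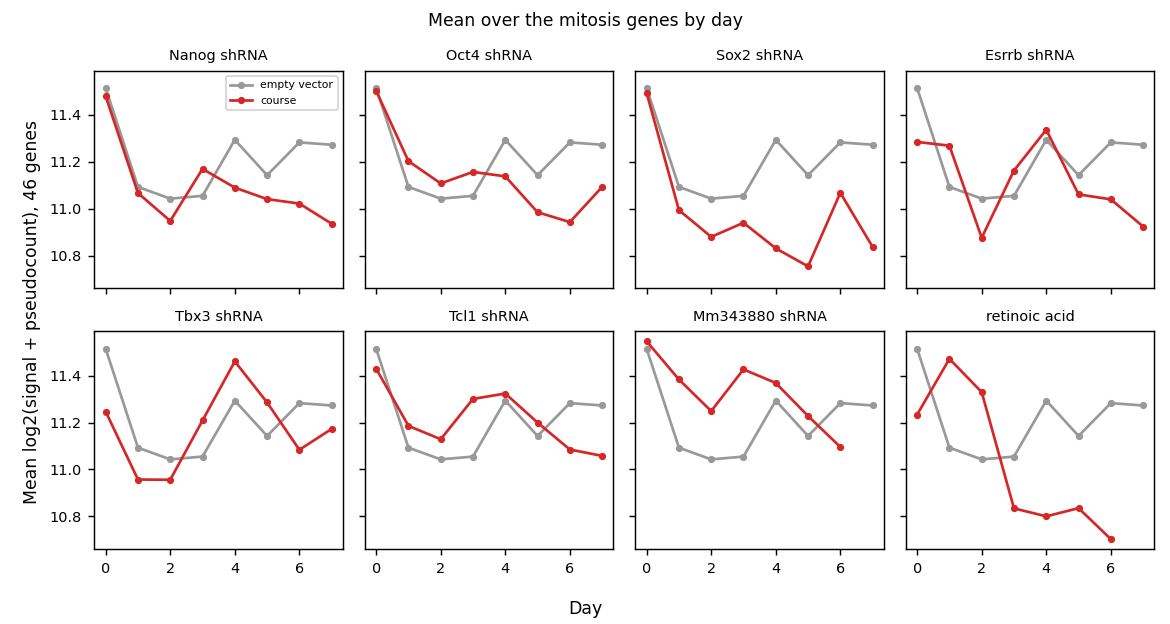
Mean over 46 mitosis genes of log2(signal + pseudocount) by day in each of 8 courses (dark) with the empty vector (grey), 1 sample a point. The vector is highest on day 0 at 11.5, the Sox2 course lies between 10.8 and 11.1 from day 1 on, and retinoic acid ends at 10.7 on day 6.

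Late levels of the Sox2 course were set directly against those of each other knockdown, which tests the difference between courses without the vector. Against the Tbx3 course 22 of 46 genes were lower (10.7% of all genes), against Tcl1 21 (10.5%), against Esrrb 14 (8.22%), against Mm343880 13 (8.84%), against Nanog 4 (5.72%) and against Oct4 4 (2.58%). In these comparisons 1 gene was higher, Pttg1 against the Nanog course, 1.59-fold (adjusted p = 2.89e-05, 4.92% of all genes higher). Of all genes 10.6% were higher against Tbx3, 10.9% against Tcl1, 6.63% against Esrrb, 9.03% against Mm343880 and 5.07% against Oct4, and at an unadjusted p under 0.05 0 mitosis genes were higher in these 5 comparisons. Cdk1 was lower in the Sox2 course than in each of the 6 others, by 1.24-fold against Oct4 (adjusted p = 0.0218) to 1.73-fold against Tcl1 (adjusted p = 7.9e-09). Against the Nanog course the genes lower in the Sox2 course were Cdk1, Ccna2, Mad2l1 and Plk4 (1.93-fold, adjusted p = 0.0141). The counts against Nanog lie near the shares of all genes and are no result about the mitosis genes. Against the Oct4 course the lower genes were Cdk1, Cdca3, Nek2 and Pttg1. With no spline the 4 calls against Oct4 were lost, and each single day of days 4 to 6 left out kept 2 or fewer of them. Without day 5 the Cdk1, Mad2l1 and Plk4 calls against Nanog were lost, and without day 4 the calls against Mm343880 numbered 6.

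The genes also differed in how widely they ranged over the 70 samples. Nuf2 ranged 20.8-fold, Smc2 18-fold, Bub1 12.5-fold and Cenpe 12.5-fold, while Ncaph ranged 2-fold, Bub3 2.03-fold and Cdk1 2.23-fold. The lowest signal of 70 fell on day 6 of the retinoic acid course for many genes, among them Cdc20, Plk1, Bub1b, Espl1 and Spc24. For Kif4 the highest signal fell there. Of the 23 genes with a mean signal at or above 2646, 20 were lower and 1 higher under retinoic acid, and of the 23 below it 8 were lower and 5 higher. Of all genes 23.3% were lower and 27.4% higher there. The median log2 difference under retinoic acid was -1.12 in the brighter genes and 0.15 in the dimmer ones, and the median SE was 0.126 and 0.225. In the Nanog course the medians of the brighter and dimmer genes were -0.37 and 0.14, with 13 and 5 lower (9.86% of all genes). In the Sox2 course they were -0.41 and -0.30, with 13 and 7 lower (12%). The part of signal level in these differences was not tested.

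The calls were also counted by promoter. Of the 28 tested genes with a CHR match, 17 were lower and 3 higher under retinoic acid, and of the 10 with a window and no match 4 were lower and 2 higher. Of all genes 23.3% were lower and 27.4% higher. In the Sox2 course 13 of 28 and 2 of 10 were lower (12% of all genes). In the Nanog course 12 of 28 and 3 of 10 were lower (9.86%). These shares are a description and the difference between them was not tested.

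Other genes of the cell cycle were read from lists. Of 16 S phase genes for DNA replication, 10 were lower in the Sox2 course (12% of all genes) and 8 in the Oct4 course (10.6%). In the Nanog course 6 were lower (9.86%), in the Mm343880 course 5 (7.07%) and under retinoic acid 11 (23.3%). On the higher side were 2 under retinoic acid (27.4%), 1 in the Nanog course (11.9%) and 1 in the Tbx3 course (6.17%). In the Esrrb, Tbx3 and Tcl1 courses 0 were lower in limma's fit (5.22%, 5.63% and 4% of all genes), and 1, 2 and 3 at an unadjusted p under 0.05. Mcm2, Mcm3 and Mcm5, subunits of the replicative helicase, had late differences of -1.18, -1.54 and -1.78 under retinoic acid, and Mcm2 gave -0.94 in the Sox2 course. In the Mm343880 course Mcm3 gave -0.75 and Cdc6, which loads the helicase, -0.62. Of 21 regulators of Cdk1 and of G2/M transcription, 4 were lower and 1 higher in the Sox2 course (12% and 11.9% of all genes). In the Nanog course 3 were lower and 4 higher (9.86% and 11.9%), and in the Oct4 course 4 and 1 (10.6% and 6.6%). Under retinoic acid 8 were lower and 5 higher (23.3% and 27.4%). Mybl2, the B-Myb factor that activates CHR genes, gave -3.75 under retinoic acid, -1.51 in the Sox2 course, -0.66 in the Oct4 course and -0.46 in the Nanog course, and passed in all 4. Of 14 subunits and regulators of the anaphase-promoting complex, 7 were lower and 4 higher under retinoic acid (23.3% and 27.4%). The higher share lies near that of all genes. Cdc27 gave 1.97 there, Anapc4 1.44 and Fzr1, the complex's activator in late mitosis and G1, -1.11.

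Under retinoic acid, where 23.3% of all genes were lower and 27.4% higher, 6 of 20 further kinetochore and centromere genes were lower and 6 higher, with Cenpm at -1.89 and Ska2 at 1.73, and of 14 further spindle genes 4 were lower and 4 higher. These shares lie near those of all genes and are no result about either list. Of 16 cohesin and condensin genes 2 were lower and 8 higher, with Nipbl, the cohesin loader, at 4.20 and Ncapg2 at 1.93. In the Sox2 course, where 12% of all genes were lower and 11.9% higher, these lists had 4 lower and 1 higher, 1 and 0, and 1 and 0. Stmn1, a tubulin-binding protein, was at -1.09. Such small counts are no result about the lists.

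The targets were lower on 8 of 8 days in each named knockdown, by 3.63-fold (Tcl1) to 11.2-fold (Esrrb), and the target of Mm343880 was not analysed here. Markers of cell type moved in all 8 courses. On late days the summed signal of 8 pluripotency genes was 53070 to 57470 in the vector, 19510 to 32240 in the Sox2 course, 16730 to 30460 in the Nanog course, 17270 to 21350 in the Oct4 course, 29630 to 39110 in the Esrrb course and 961 to 1528 under retinoic acid, and 36340 to 50370 over the Tbx3, Tcl1 and Mm343880 courses. All 9 trophectoderm markers were higher in the Nanog and Oct4 courses, 8 in the Sox2 course (57180 to 73780 against 4587 to 7728 in the vector) and 6 in the Esrrb course (18170 to 52320), with 5 in each of the other 3 knockdowns and under retinoic acid. In those 3 knockdowns, as in the Esrrb course, they were mostly keratins. The late log2 means in the Sox2 course were 14.84 for Krt18, 14.25 for Krt8, 13.04 for Krt19 and 11.96 for Krt7. The highest of the other markers there was Tfap2c at 11.06, so that sum rests mainly on keratins. On the log2 scale Cdx2 (-1.25), Eomes (-0.80) and Tfap2c (-2.50) were lower under retinoic acid, and Hand1 (-0.64) in the Mm343880 course. Of all genes 27.4% were higher under retinoic acid and 4.99% (Tcl1) to 11.9% (Nanog and Sox2) in the knockdowns. Of 7 fibroblast markers 6 were higher under retinoic acid (34450 to 43810 against 3399 to 3802 in the vector) and 4 in each of the Sox2 (23050 to 27590), Esrrb (29020 to 35200) and Tbx3 (7387 to 17600) courses. The fibroblast sum was also above the vector in the Mm343880 (16110 to 39570), Tcl1 (18630 to 25720), Oct4 (5329 to 8562) and Nanog (3939 to 9734) courses. Among these markers only Tagln and Acta2 passed as higher in the Nanog, Oct4 and Tcl1 courses, with Col1a1 added in the Mm343880 course. Thy1 went the other way and passed as lower under retinoic acid (-0.80 on the log2 scale) and in every knockdown except Mm343880. Its largest difference was in the Sox2 course (-1.17). The part of these marker changes in the differences of the mitosis genes was not tested. The array median was higher under retinoic acid (mean 342 ± 40.2 SD, n = 7, on the A array) than in the vector (282 ± 28.8 SD, n = 8). Centring arrays on their medians moved the median of all genes to -0.24 and gave 30 mitosis genes lower and 2 higher under retinoic acid. The log2 ratio of 3′ to 5′ Actb signal was between -0.08 and 0.37 on all 140 arrays.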

How the data were processed

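Each of the 70 RNA samples was hybridised to both arrays (MOE430A and MOE430B, called A and B) of an Affymetrix mouse set, 140 arrays in all. The deposited values are MAS5 intensity on a linear scale, computed by the authors per the submitters' processing notes, with the version not given in the sources used here. Values were taken as log2(signal + pseudocount), with pseudocounts of 63.1 (A) and 21.8 (B), the value below which 20% of each table lies. A probe set was kept where it was above the table median on at least 3 of 70 arrays, and each gene was represented by its brightest probe set that names 1 gene (8717 genes on A, 6032 on B). The fit used limma 3.58.1 in R 4.3.3 with an intensity trend and a natural spline of day (3 degrees of freedom) for each of the 9 courses, with Benjamini-Hochberg adjustment over both tables. The script was tested on simulated data.

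The members, gene lists, named genes and tests were chosen with earlier results of these data known. Genes named with values are the members by role, the largest changes among calls and up to 3 of each list, and the ranges by course were chosen after their values were seen. With 1 sample a day, p-values measure the spread of single samples around their curves and not that of replicate transductions. Alternatives covered the pseudocount, filter, scaling, probe set choice, spline and samples used, and each day left out, with day as a block added after seeing the data.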

Additional observations from a re-analysis of the deposited data

Results flagged for a closer look

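Of 72 groups of samples examined, 7 had 1 sample far from the others of its course, and about 1 in 20 groups would by chance. The mean over the mitosis genes on the log2 scale was far above the other days on day 0 of the Nanog course (11.48, others 10.94 to 11.17), the Oct4 course (11.5, others 10.94 to 11.2) and the Sox2 course (11.49, others 10.75 to 11.07). Bub1b stood high on day 0 of the Sox2 course (12.34, signal 5126) and Kif11 on day 0 of the vector (9.879, signal 879), while Cdk1 stood high on day 5 of the Nanog course (13.26, signal 9769) and Cdc20 low on day 6 of the Nanog course (12.84, signal 7276). The late level of the Sox2 course differed from that of other knockdowns, by the fit's test of the difference, in 5 mitosis genes against Nanog, 4 against Oct4, 14 against Esrrb, 22 against Tbx3, 21 against Tcl1 and 13 against Mm343880.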

How the results depend on the processing

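Depth is limited by 1 array pair a day, and dim probe sets had larger errors. Of the 20 late Sox2 calls 13 held under all 17 alternatives, of the 19 Nanog calls 9, of the 34 retinoic acid calls 21, of the 10 Mm343880 calls 1 and of the 9 Oct4 calls 0, while 19 of the 22 falls within the retinoic acid course held. Values below are total calls of mitosis genes, and the cause of each change was not tested. Samples share only the day of their course, and of 62 pairs of a course sample and the vector sample of the same day 15 had residuals that correlated above 0.1 over genes. With day as a replicate block, added after seeing the data and possible only between courses, 0 calls were lost in the 14 comparisons, and calls numbered 3 for Esrrb against the vector and 7 for Sox2 against Oct4.

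Late against the vector, quantile normalization gave 1 for Esrrb and 4 for Tbx3, median centring 1 for Tbx3 and 1 for Tcl1 (lower, so the balance reversed), averaged probe sets 1 for Tbx3, the probe set of highest mean rank 1 for Esrrb, a spline with 2 degrees of freedom 2 for Esrrb, and no spline 0 for Tbx3, 2 for Tcl1 and 2 for Mm343880. Within courses, averaged probe sets gave 12 for Nanog, the probe set of highest mean rank 0 for Esrrb and 1 for Tbx3, a spline with 2 degrees of freedom 2 for Esrrb, no spline 3 for Nanog, 2 for Oct4, 3 for Sox2, 0 for Esrrb and 1 for Mm343880, and only the courses compared 3 for Nanog, 13 for Oct4, 3 for Sox2, 0 for Esrrb and 1 for Mm343880. For Sox2 against another knockdown, quantile normalization gave 8 for Mm343880, averaged probe sets 2 for Oct4, a spline with 2 degrees of freedom 9 for Oct4 and 22 for Esrrb, no spline 3 for Nanog, 0 for Oct4 and 8 for Mm343880, and only the courses compared 3 for Nanog, 2 for Oct4 and 5 for Mm343880.

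With each day left out in turn, late calls against the vector were 13 to 20 for Nanog, 1 to 10 for Oct4, 16 to 19 for Sox2, 0 to 2 for Esrrb, 0 to 1 for Tbx3, 1 to 4 for Tcl1, 7 to 11 for Mm343880 and 28 to 35 for retinoic acid. The balance of directions reversed without day 6 for Mm343880 (8) and Tbx3 (1), and without day 4 or day 5 for Tcl1 (1). Calls within courses were 0 to 3 for the vector, 2 to 10 for Nanog, 0 to 13 for Oct4, 0 to 11 for Sox2, 0 to 2 for Esrrb (reversed without day 5, 1), 0 to 2 for Tbx3, 1 to 8 for Mm343880 and 20 to 23 for retinoic acid. Calls of Sox2 against another knockdown were 3 to 8 for Nanog, 1 to 4 for Oct4, 11 to 18 for Esrrb, 15 to 23 for Tbx3, 17 to 21 for Tcl1 and 6 to 16 for Mm343880.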
